A study of Mus musculus with 2 samples.

Results

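The Fc gamma receptors and the proteins that carry their signal were followed in the liver of mice fed cholesterol for 1 week. The group holds 7 genes: the receptors Fcgr1, Fcgr2b and Fcgr3, the shared signalling chain Fcer1g, the kinase Syk, the phosphatase Ptprc and the lysosomal protein Laptm5. They were taken by gene name from the arrays, where 16 of 41174 probes carry 1 of these names. All 7 were among the 16730 genes above background, and the brightest probe of each was well above background on all 6 arrays. All mice were male apoE-KO mice of the C57BL/6 strain, so both diet groups lacked apolipoprotein E and no wild-type liver is among the 6 arrays. From 10 weeks of age they ate normal chow, or that chow with 1.25% Chol (the high-Chol diet), and total liver RNA of 3 independent experiments per diet was hybridised to one-colour arrays. Values are log2 signals relative to the 75th percentile of the array, so 0 is the 75th percentile and 1 unit is a doubling.

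Arrays 1, 2 and 3 of each diet are numbered only to name them. The 3 normal chow arrays and high-Chol array 1 shared a slide, and high-Chol arrays 2 and 3 lay on another slide with an earlier version of the scanning software. The 75th percentile of the signal was 271 to 373 intensity units on slide 1 and 762 and 799 on slide 2. Each difference of the 7 genes is therefore given also within slide 1, where a single high-Chol array met the 3 normal chow arrays. The probe for Apoe, the gene deleted in all mice, gave signals between 1.66 and 3.81 on the log2 scale, and its place relative to the deleted part is not given in the sources used here.

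Fc gamma receptors are surface proteins of leukocytes that bind the constant part of IgG and so couple antibody-coated particles to uptake and cell activation. Fcgr1 and Fcgr3 are activating receptors and signal through Fcer1g, whose cytoplasmic motif, called an ITAM, is phosphorylated by Src family kinases and then docks Syk. Fcgr2b is the inhibitory receptor and carries an opposing motif that recruits the lipid phosphatase encoded by Inpp5d. Ptprc encodes CD45, which removes an inhibitory phosphate from Src family kinases, and Laptm5 is a lysosomal membrane protein of blood-derived cells. In the liver, activating receptors are known from Kupffer cells, the resident macrophages, while Fcgr2b is abundant in sinusoidal endothelium, which clears small immune complexes from the blood.

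The DNA just before the start of 5 of these genes is printed so that genes called higher below can be set beside Fcgr1 and Fcgr2b, which were not. Each is the 250 bases upstream of a RefSeq start in the GRCm38.p6 assembly, 5′ to 3′ in the direction of the gene. Capitals mark GAGGAA or its reverse complement TTCCTC, the core of sites of the myeloid factor PU.1, and TTCNNNGAA, the letters of the gamma activated site, an element of interferon-responsive promoters. The windows are chr3:96293970-96294219 on the minus strand, chr1:170976072-170976321 on the minus strand, chr1:171059395-171059644 on the minus strand, chr1:171234350-171234599 on the minus strand and chr4:130913066-130913315 on the plus strand, in the order shown.
Fcgr1: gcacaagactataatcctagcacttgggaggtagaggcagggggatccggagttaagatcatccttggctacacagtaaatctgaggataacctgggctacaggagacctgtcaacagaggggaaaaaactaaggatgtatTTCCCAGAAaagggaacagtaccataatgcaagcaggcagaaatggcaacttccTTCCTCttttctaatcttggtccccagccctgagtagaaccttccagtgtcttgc
Fcgr2b: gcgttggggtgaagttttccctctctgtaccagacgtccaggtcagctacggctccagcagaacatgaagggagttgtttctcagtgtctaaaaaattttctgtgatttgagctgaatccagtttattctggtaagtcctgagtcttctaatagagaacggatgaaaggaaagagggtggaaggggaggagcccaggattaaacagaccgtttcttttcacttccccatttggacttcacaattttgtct
Fcgr3: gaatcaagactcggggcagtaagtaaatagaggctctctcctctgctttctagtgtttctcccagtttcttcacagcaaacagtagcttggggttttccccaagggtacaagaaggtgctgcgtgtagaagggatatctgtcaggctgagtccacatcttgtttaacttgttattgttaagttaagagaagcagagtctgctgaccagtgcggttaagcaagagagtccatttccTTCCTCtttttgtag
Fcer1g: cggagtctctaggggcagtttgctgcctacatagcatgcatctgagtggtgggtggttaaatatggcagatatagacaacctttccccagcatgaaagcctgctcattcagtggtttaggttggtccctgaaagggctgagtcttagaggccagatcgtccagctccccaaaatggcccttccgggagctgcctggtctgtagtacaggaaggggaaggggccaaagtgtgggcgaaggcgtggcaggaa
Laptm5: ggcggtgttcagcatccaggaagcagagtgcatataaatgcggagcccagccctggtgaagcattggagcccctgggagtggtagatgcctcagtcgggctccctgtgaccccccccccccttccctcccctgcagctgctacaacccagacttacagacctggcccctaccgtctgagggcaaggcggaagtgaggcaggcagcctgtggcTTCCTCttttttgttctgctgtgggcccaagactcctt
The Fcgr1 window held both motifs, with TTCCCAGAA ending 100 bases and TTCCTC ending 49 bases before the start. TTCCTC ended 9 bases before the start of Fcgr3 and 32 bases before that of Laptm5. The longest run shared by the Fcgr1 and Fcgr3 windows was 14 bases, and the other pairs of first windows, Fcgr4 included, shared 7 to 12. Over the 10 windows of the 7 genes, 5 genes had the PU.1 core in at least 1 window, and 23.3% of the 32851 RefSeq windows of this length held it. Ptprc and Syk each had it in 1 of their 2 windows, and the windows of Fcgr2b and Fcer1g did not hold these letters. The gamma activated site was found before 1 of the 7 genes, Fcgr1, and in 7.02% of all windows. For both motifs the count is of genes, some with 2 windows, and the share is of windows, so they are not like for like. A match is a run of letters and was not tested as a bound site.

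Of the 7 genes, 5 were higher on the high-Chol diet by limma with Benjamini-Hochberg adjustment and 0 were lower, where 2.69% of all genes tested were called higher and 0.227% lower. Without adjustment, 6 of the 7 had a positive difference and 0 a negative one at p under 0.05, as 12.3% and 8.83% of all genes had. The median difference of the 7 genes was 1.12 on the log2 scale, and that of all genes tested was -0.02. In 6 of the 7 every high-Chol array lay above every normal chow array, which held for 11.9% of the 16438 genes measured on all arrays. Within slide 1, the high-Chol array lay above its 3 normal chow arrays for 6 genes, against 21.9% of those genes. With slide as a block in limma, 0 of the 7 were called and 0.0658% of all genes were called higher. At an unadjusted p under 0.05, 6 of the 7 and 9.1% of all genes differed in that fit.

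The count depended on single arrays. Without normal chow array 1, 2 or 3 it fell to 2, 0 and 1, and without high-Chol array 2 or 3 it was 1 in each case. Without high-Chol array 1, where diet and slide coincide and cannot be told apart, it was 6. The share of all genes called higher moved likewise, to 1.43, 0.251 and 1.0%, to 0.616 and 0.903%, and to 13.8%, in that order. These p-values measure the spread between 3 arrays per diet, and in whole liver more cells of a type and more RNA per cell cannot be told apart.

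**Figure D1:**
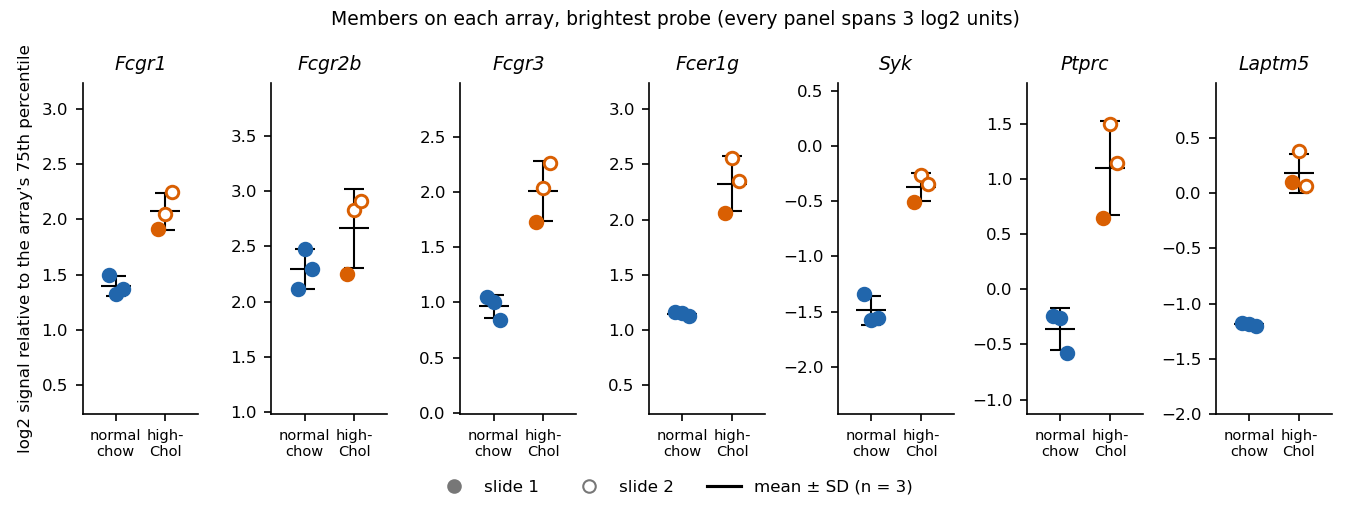
Log2 signal of each gene's brightest probe on the 6 arrays, relative to the array's 75th percentile, with filled points for slide 1, open points for slide 2 and bars for the mean ± SD of 3 arrays. The diets are apart in 6 panels, while for Fcgr2b high-Chol array 1 lies among the normal chow arrays, and high-Chol array 1 is the lowest high-Chol array in 6 panels.

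Among the receptors, Fcgr3 rose 2.06-fold (95% interval 1.53 to 2.78), and Fcgr1 and the inhibitory Fcgr2b were not called. The Fcgr3 value is that of the brighter of its 2 probes, and with both averaged its difference was 0.65 with no call (limma adjusted p = 0.0799), which left 4 members called. Fcgr3, the activating receptor of intermediate to low affinity, gave 1.05, 1.00 and 0.84 in the chow-fed livers against 1.73, 2.04 and 2.26 after the high-Chol diet. The lowest high-Chol array was 0.68 above the highest normal chow array. The difference was 1.04 ± 0.18 (SE, n = 3 per diet) with a limma adjusted p of 0.0344, and within slide 1 it was 0.76.

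Fcgr1, the high-affinity receptor for IgG, gave 1.50, 1.33 and 1.37 in the chow-fed livers against 1.92, 2.05 and 2.25 after the high-Chol diet. The groups were apart by 0.41, although the limma adjusted p of 0.0779 missed the threshold. Its difference was 0.67 ± 0.16 (SE), a fold of 1.60 with a 95% interval of 1.24 to 2.06, and within slide 1 it was 0.52.

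Fcgr2b, the inhibitory receptor, gave 2.11, 2.48 and 2.29 in the chow-fed livers against 2.25, 2.83 and 2.91 after the high-Chol diet. High-Chol array 1 lay within the range of normal chow, and the 2 arrays of slide 2 lay above it. The difference of 0.37 ± 0.22 (SE) had a limma adjusted p of 0.357, and its 95% interval of -0.15 to 0.89 includes a loss as well as a 1.85-fold gain. Within slide 1 the difference was -0.04.

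The partners of the receptors each rose between 2.17- and 2.74-fold. Fcer1g, the common chain of the activating receptors, gave 1.17, 1.15 and 1.13 in the chow-fed livers against 2.06, 2.56 and 2.35 after the high-Chol diet. Its normal chow arrays agreed within an SD of 0.02, and its high-Chol arrays had an SD of 0.25. The difference was 1.18 ± 0.17 (SE) with a limma adjusted p of 0.0187, and 0.91 within slide 1.

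Syk, the tyrosine kinase that docks on phosphorylated ITAMs, gave -1.34, -1.57 and -1.55 in the chow-fed livers against -0.51, -0.26 and -0.35 after the high-Chol diet. The diets were apart by 0.83 and the 3 high-Chol arrays lay close together across both slides. The difference was 1.12 ± 0.15 (SE) with a limma adjusted p of 0.0158, and 0.98 within slide 1.

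Ptprc, which encodes the leukocyte phosphatase CD45, gave -0.24, -0.26 and -0.58 in the chow-fed livers against 0.65, 1.49 and 1.14 after the high-Chol diet. Its difference was 1.46 ± 0.24 (SE, limma adjusted p = 0.0290), and it had the widest high-Chol spread, an SD of 0.43 on this scale. High-Chol array 1 was its lowest high-Chol array, and within slide 1 the difference was 1.01.

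Laptm5, the lysosomal membrane protein, gave -1.17, -1.19 and -1.20 in the chow-fed livers against 0.10, 0.39 and 0.06 after the high-Chol diet. The gap between the diets, 1.23, was the widest of the 7 genes on this scale. The difference was 1.37 ± 0.15 (SE) with a limma adjusted p of 0.00895, and within slide 1 it was 1.29.

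The activating receptors and their chain were also compared with the inhibitory receptor inside each array, by subtracting the Fcgr2b value from that of Fcgr1, Fcgr3 or Fcer1g, so that the scaling of the array cancels. Fcer1g minus Fcgr2b was -0.94, -1.33 and -1.16 in the chow-fed livers against -0.19, -0.27 and -0.56 after the high-Chol diet, a change of 0.81 ± 0.16 (SE). Fcgr3 minus Fcgr2b was -1.06, -1.48 and -1.45 in the chow-fed livers against -0.53, -0.79 and -0.65 after the high-Chol diet, a change of 0.67 ± 0.15 (SE). The diets did not overlap in either. Fcgr1 minus Fcgr2b changed by 0.30 ± 0.20 (SE), and its diets overlapped. An exact two-sided permutation test gave p = 0.1 for Fcer1g and for Fcgr3, the smallest that 3 against 3 arrays allow, and p = 0.3 for Fcgr1, with values of 0.15, 0.15 and 0.3 adjusted over the 3 comparisons. Within slide 1 the changes were 0.96 for Fcer1g, 0.80 for Fcgr3 and 0.56 for Fcgr1. Levels of different probes are not comparable, so only the changes are read.

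Where a gene had several probes they were examined one by one. Of the 16 probes 14 were above background, all 14 had a positive difference and in 11 the diets did not overlap. Every gene except Syk had several of these probes, so the counts are of probes and not of independent genes. The matching shares over all probes of the arrays are not given here, so the counts only describe these probes. Positions are those of the array annotation in the mm7 assembly, which names no exon or UTR for them.

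Both Fcer1g probes, at chr1:171199756-171199815 and chr1:171199808-171199880 on the minus strand, gave nearly one difference, 1.18 and 1.17. Both Laptm5 probes, at chr4:130149289-130149348 and chr4:130149397-130149456 on the plus strand, differed by 1.37 and 1.58. The Syk gene had 1 probe, at chr13:51686664-51686723 on the plus strand. Both Fcgr1 probes, at chr3:96156859-96156905 and chr3:96158425-96158488 on the minus strand, differed by 0.67 and 0.93, the dimmer one more.

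The Fcgr3 probes disagreed. The brighter one, at chr1:171027992-171028067, gave the 1.04 above, while the other, at chr1:171030474-171030533, gave 0.86, 0.95 and 0.85 in the chow-fed livers against 1.08, 1.16 and 1.21 after the high-Chol diet. Its diets were apart, but the difference was 0.26 ± 0.14 (SE), with a limma adjusted p of 0.339 over all probes. With probes averaged, the change of Fcgr3 relative to Fcgr2b was 0.35. The 0.26 of the second Fcgr3 probe was below the 0.37 of the brightest Fcgr2b probe.

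The 3 Fcgr2b probes gave like values. The brightest, at chr1:170937333-170937392, was printed as 10 spots whose log2 signals had an SD of 0.05 to 0.10 within an array. The others, at chr1:170937472-170937531 and chr1:170942178-170942237, differed by 0.28 and 0.26, and all 3 overlapped between the diets. The SD between spots was thus below that between arrays, which was 0.18 for the chow-fed livers and 0.36 after the high-Chol diet.

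Ptprc had 4 probes. That at chr1:137950290-137950349, also printed as 10 spots with an SD of 0.05 to 0.11, is the one reported above, and a second at chr1:137952892-137952951 was dimmer and differed by 1.25. The other two, at chr1:138000486-138000545 and chr1:138011112-138011171, were not well above background on any array. The probes of Fcgr1, Fcgr2b, Fcgr3 and Fcgr4 are 60 bases long and shared no run longer than 8 bases between genes, with at most 25 equal bases in any ungapped alignment.

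**Figure D2:**
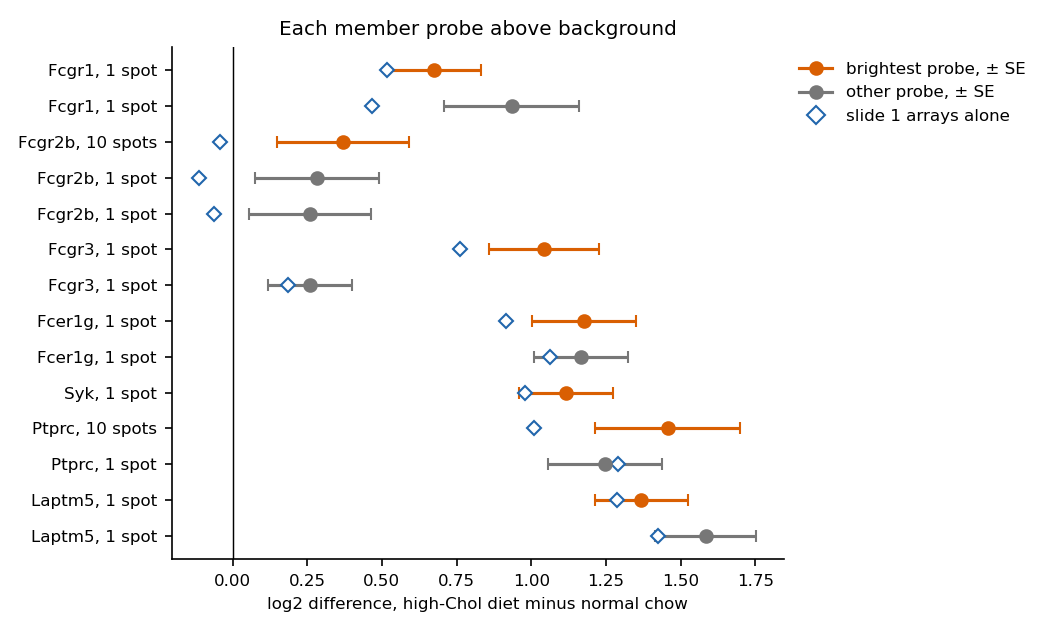
Log2 difference between the diets for the 14 probes above background, with bars of 1 SE, the brightest probe of each gene in orange and the slide 1 estimate as an open diamond. All 14 circles lie right of 0, the 3 diamonds of Fcgr2b lie left of it, and the second Fcgr3 probe stands at 0.26 against 1.04 for the first.

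The genes around the receptors were read from 9 further lists of the pathway, 115 entries of which 95 were tested. Of these, 34 were called higher (35.8%, where 2.69% of all genes were) and 0 lower, and 4 had a negative difference with an unadjusted p under 0.05, as 8.83% of all genes had. The lists were put together with earlier results of these data known, and 10 of their entries stand also in a cell type list below, so the counts describe these genes and are no independent evidence. Of the 34, 29 were well above background on every array, and 5 on fewer than 3 normal chow arrays. These 5 passed the filter through the high-Chol arrays alone, so their calls are no support.

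Among the other Fc receptors 1 of 6 tested was called, Fcgr4, the remaining activating IgG receptor of the mouse. Fcgr4, named Fcgr3a on the array, gave -0.01, -0.02 and -0.19 in the chow-fed livers against 0.73, 0.87 and 0.84 after the high-Chol diet. It was higher by 0.88 ± 0.14 (SE, limma adjusted p = 0.0261), and by 0.80 within slide 1. Fcgrt, the neonatal receptor that recycles IgG and albumin, differed by -0.52 and was not called. Another 6 were below background, among them Ms4a2, the beta chain of the IgE receptor, and Fcer2a, the low-affinity IgE receptor.

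Of the antibody and pentraxin ligands 0 of 6 tested were called by limma, and 2 had a positive difference at an unadjusted p under 0.05, where 12.3% of all genes had one. The largest differences were 0.70 for Ighm, the constant region of IgM, and 0.56 for Jchain, the chain that joins antibody multimers, and the list median was 0.52. With the background removed by the normexp method, described below, Ighm differed by 0.47 and Jchain by -0.26. The list median was then 0.13, and it was 0.19 with slide as a block and 0.28 in the authors' deposited values.

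The list of ITAM adaptors and the receptors that use them had 7 of 13 called higher, with a median of 1.49. The median was 0.30 with normexp, 0.97 with slide as a block and 0.72 in the authors' deposited values. The largest differences of the list were those of C-type lectins and Trem2. Clec4e, a receptor for mycobacterial and damaged-cell glycolipids, was not well above background on any normal chow array and gave -0.67, -0.06 and -0.96 on the high-Chol diet, which on the 75th percentile scale is at least 15.9-fold higher (limma adjusted p = 0.00187). It passed the filter through the high-Chol arrays alone, and with normexp its log2 difference was 0.88. The bound is the high-Chol mean over, per array, the higher of the probe's own signal and the dimmest one that counted as well above background. Clec4d, its partner receptor, was well above background on 1 of 3 normal chow arrays, so its difference of 3.74 rests partly on background signal, and with normexp it was 0.42. Trem2, the lipid-sensing receptor of macrophages, gave -0.94, -1.43 and -0.32 against 2.01, 2.63 and 2.78, a difference of 3.37 ± 0.33 (SE). Clec7a, the receptor for beta-glucan that signals through Syk, differed by 3.02 ± 0.32 (SE).

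Of the Src family kinases and their regulators 2 of 9 were called higher, among them the myeloid kinase Fgr, by 1.42 ± 0.15 (SE), and by 0.55 with normexp. Lyn, which also phosphorylates ITAMs, differed by 0.23 and was not called. The Syk effectors had 4 of 17 called higher. These were Pik3cd, the leukocyte catalytic subunit of PI 3-kinase, by 1.53, the scaffold Lcp2 by 1.33, the phospholipase Plcg2 by 1.27 and the kinase Btk by 1.12. With normexp they differed by 0.74, 0.49, 0.96 and -0.09, in that order.

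Inhibitory receptors and phosphatases had 7 of 17 called higher and 0 lower. Lilrb4 gave -2.74, -2.92 and -2.15 in the chow-fed livers against -0.24, 0.89 and -0.04 after the high-Chol diet, a difference of 2.80 ± 0.34 (SE). Cd300a differed by 1.84, Cd300lf by 1.65 and Sirpa, the receptor for the do-not-eat-me signal CD47, by 1.52. With normexp Lilrb4 differed by 1.07, Cd300a by 0.82, Cd300lf by 0.87 and Sirpa by 1.59. Inpp5d, the phosphatase recruited by Fcgr2b, was called higher by 1.35 ± 0.20 (SE), and Ptpn6, the phosphatase of many inhibitory receptors, differed by 0.47 without a call.

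Of the phagocyte oxidase, which makes superoxide in the phagosome, 4 of 6 genes were called higher, among them Cyba by 1.70, the GTPase Rac2 by 1.27 and Ncf4 by 1.04. The list median was 1.31, and 0.72 with normexp. Of the phagocytic actin genes 7 of 13 were higher, led by the class I myosin Myo1f with 1.88, the actin regulator Coro1a with 1.57, the scaffold Iqgap1 with 1.55 and the myosin Myo1g with 1.41. All 13 had differences above 0, and 11 of them with normexp. Among the transcription factors 2 of 8 were higher. Spi1, which encodes PU.1 and is named Sfpi1 on the array, differed by 1.22, but it was well above background on 1 of 3 normal chow arrays and with normexp the difference turned to -0.44. Irf8 differed by 1.10, and by 0.98 with normexp.

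Removing the background by the normexp method in place of the scanner's own subtraction left 0 of the 7 members and 0 of these list genes called, with 0.0% of all genes called higher and 306 genes (1.83%) at an unadjusted p under 0.05, 3 of them members. Of the 34 called list genes, 4 then had a difference below 0. It also turned the medians of the other Fc receptors and the Src family kinases below 0. The method as run added an offset of 50 intensity units to every spot, beside array medians of 27 to 36 on slide 1 and 98 and 103 on slide 2. By construction the offset lifts dim signals more on slide 1, which holds all normal chow arrays, and so tends to lower their differences. Its share in each change was not tested. With slide as a block, 1 list gene was called. Without normal chow array 1, 2 or 3 the list count was 19, 4 and 15, and without high-Chol array 2 or 3 it was 15 in each case. Without high-Chol array 1, where diet and slide coincide, it was 59. The shares of all genes for the same arrays are given above.

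**Figure D3:**
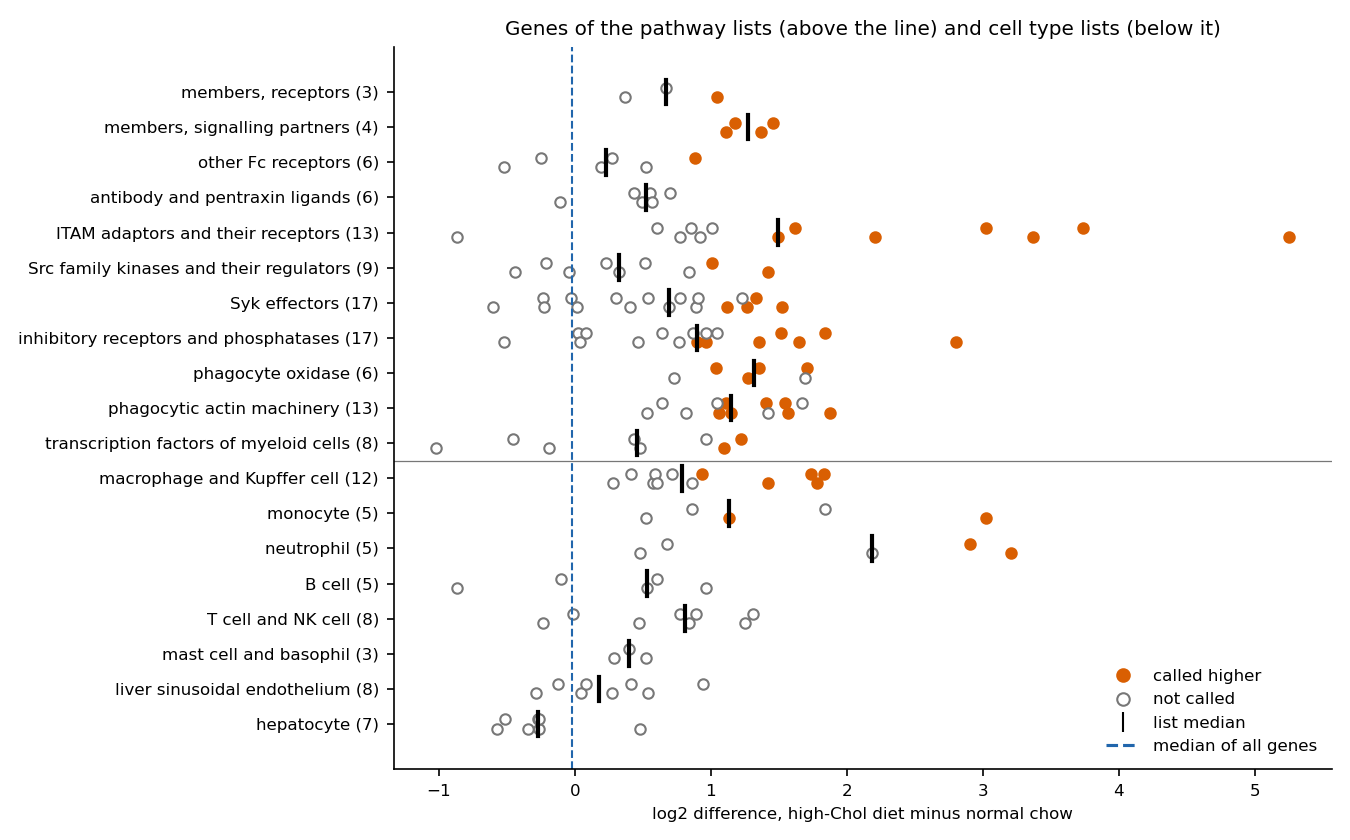
Log2 difference between the diets for each tested gene of the pathway lists and the cell type lists, with the number tested in brackets, called genes filled, the list median as a black bar and the median of all genes as a dashed line. Among the pathway lists the oxidase, the actin genes, the ITAM list and the signalling partners have medians above 1, and of the sinusoidal endothelium and hepatocyte lists no gene is filled.

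Some markers of phagocytes were called higher as well. Of 12 macrophage and Kupffer cell markers tested 5 were called higher, and all 12 had differences above 0. The 5 called were the scavenger receptor Marco by 1.83, lysozyme Lyz2 by 1.78, Cd68 by 1.74, Cd5l by 1.42 and C1qc by 0.93. The summed linear signal of the list, in units of the array's 75th percentile, was 186 to 218 in the chow-fed livers against 439 to 580 on the high-Chol diet. Lyz2 and Cd5l together made up 60.8 to 64.5% and 67.0 to 76.9% of it, and the other markers summed to 66.5 to 77.6 and 130.2 to 144.7. The marker Adgre1 had no value on high-Chol array 2 and is missing from the sums of that array. The list median of the log2 differences was 0.79. The 7 not called differed by 0.28 to 0.86, the Kupffer cell markers Clec4f, Vsig4 and Timd4 among them by 0.41, 0.58 and 0.86.

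Of 5 monocyte markers 2 were called, Ccr2 and Itgal, the latter by 1.13. Ccr2 was well above background on 1 of 3 normal chow arrays, so its difference of 3.02 rests partly on background signal, and with normexp it was 0.17. The summed signal was 4.46 to 5.65 against 7.04 to 8.97. Of 5 neutrophil markers S100a8 and S100a9 were called, by 3.21 and 2.90, and with normexp they differed by 1.07 and 2.62. The sum was 2.04 to 2.35 against 10.5 to 16.7, of which S100a9 made up 58.6 to 63.3% on normal chow and 76.0 to 83.8% on the high-Chol diet. Ngp, Camp, Elane and Cxcr2 were below background. B cell, T and NK cell, mast cell and basophil, sinusoidal endothelium and hepatocyte lists had 0 genes called by limma. At an unadjusted p under 0.05, they had 1, 4, 0, 2 and 1 genes with a positive difference, in that order, and the hepatocyte list had 1 with a negative one. The lists hold 5, 8, 3, 8 and 7 tested genes, and 12.3% of all genes had a positive and 8.83% a negative difference at that threshold. Their part in the result of the 7 genes was not tested.

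The sinusoidal endothelium, the cell that holds much of the liver's Fcgr2b, had a summed signal of 33.5 to 38.2 in the chow-fed livers against 35.7 to 38.7 on the high-Chol diet, so the ranges overlapped. The lectin Clec4g made up 59.6 to 62.0% and 52.0 to 57.8% of it, and the other markers summed to 12.7 to 15.4 and 15.3 to 17.9. Its 8 markers differed by -0.29 to 0.94 with a median of 0.18, and 6 of them lay above 0. With median scaling that median turned to -0.06 and 4 of the 8 lay above 0. The largest differences were 0.94 for Cdh5, the cadherin of endothelial junctions, and 0.54 for the mannose receptor Mrc1, neither of them called. No array lacked a signal well above background for any of the 7 hepatocyte markers tested. Their summed signal was 1480 to 1747 in the chow-fed livers and lower, at 1171 to 1283, after the high-Chol diet. Bright genes weigh most in this sum, and the brightest, Alb, differed by -0.34 and was not called. The list median was -0.27 with 1 of 7 differences above 0. It was -0.05 with normexp, where 2 of 7 lay above 0, -0.11 with quantile normalization and -0.51 with median scaling.

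The genes with the most similar pattern over the 6 arrays were found among the 14044 genes measured and well above background on all of them. Each gene's values were centred on its mean and set against the mean centred profile of the 7 members. The nearest 5 genes outside the group were Tmem16f, Akr1b8, Mpeg1, Il18bp and Ly86, with root mean square differences of 0.0401, 0.0527, 0.0565, 0.0611 and 0.0622 on the log2 scale. Among the members Fcer1g (0.0874), Fcgr3 (0.0894) and Syk (0.0956) lay nearest to the mean they enter into. Fcgr2b lay farthest at 0.361, at rank 1269.

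The choice of processing moved the sizes more than the signs. Fcgr1, Fcgr3, Fcer1g, Syk, Ptprc and Laptm5 had a difference above 0 under the 13 alternatives that change the difference of at least 1 member, and Fcgr2b under 12, the slide block giving -0.04. The other 4 alternatives alter only the genes tested or the test. With normexp the difference was 0.37 for Syk and 0.69 for Laptm5, against 1.23 for Fcer1g and 1.09 for Fcgr3. Scaling by the median moved the median of all genes from -0.02 to -0.26, and normexp moved it to -0.11. The median of the members was 0.88 and 0.78 there, and under median scaling Fcgr3 and Syk missed the threshold with limma adjusted p-values of 0.0726 and 0.0574. Median scaling called 3 members and 1.97% of all genes higher, no filter on dim probes 0 members and 0.093% (6 members and 11.4% at an unadjusted p under 0.05), and array weights 6 members and 12.1%.

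**Figure D4:**
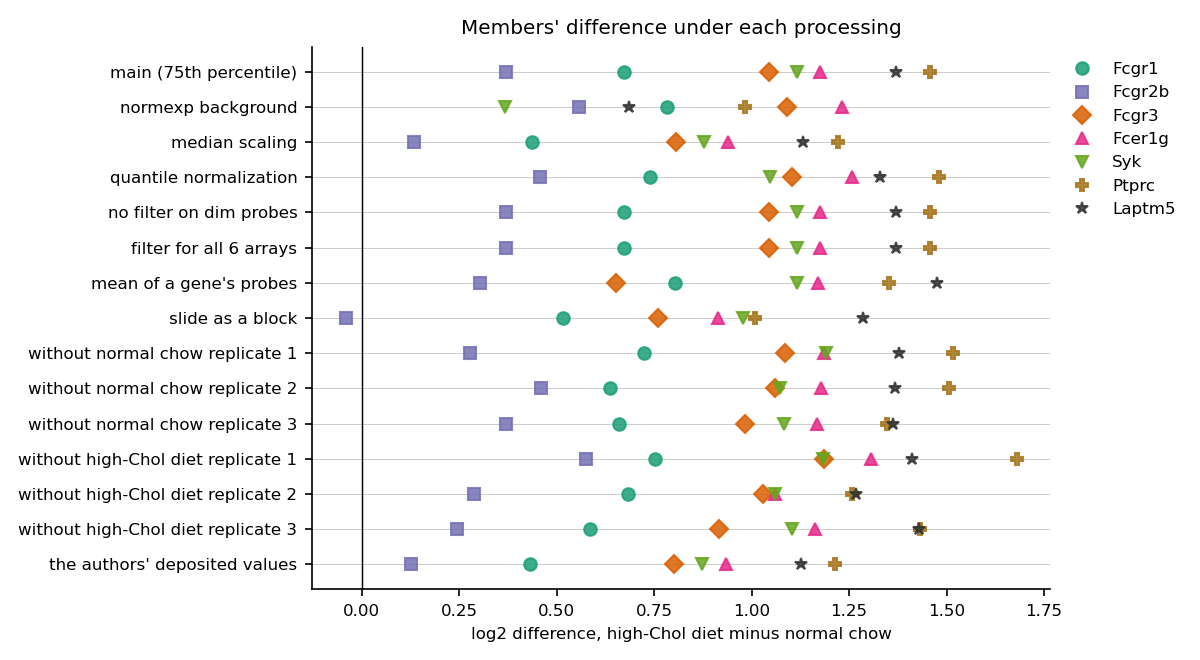
Log2 difference of each gene between the diets under the main processing and the alternatives, without array weights and those that alter only the test, 1 symbol per gene. The symbols stay right of 0 except Fcgr2b with slide as a block, and Syk and Laptm5 shift left under the normexp background.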

How the data were processed

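Liver RNA of apoE-KO mice on normal chow or the high-Chol diet was hybridised to 6 one-colour arrays. The authors deposited scanner files with background-subtracted spot intensity (Feature Extraction 9.1 per the labels, 9.5 per the headers of slide 1) and, from Gene Spring GX per the methods, a table of log2 values for 23458 probes, 1 per diet. Its normalization is not given in the sources used here. Its column medians were -0.0019 (normal chow) and -0.27 (high-Chol diet), and its differences lay 0.24 below those computed here, with a slope of 1.00.

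Here log2 intensity was taken relative to each array's 75th percentile. Control spots and spots marked as outliers were left out, spots of a probe were averaged, and a probe was kept if every array of 1 or both diets showed it well above background. The brightest probe stood for its gene. Diet effects were fitted in limma 3.58.1 (R 4.3.3), with Benjamini-Hochberg adjusted p-values under 0.05 called, on 16730 genes, and the fit was tested on simulated data. Accessions of 22951 probes matched RefSeq, used for names. Promoter windows are from RefSeq (GRCm38.p6), with at least 1 window for each of the 7 genes and Fcgr4. The number of arrays limits the precision.

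The members, lists and tests were chosen with earlier results of these data known. Named genes are the 7 members with every probe, per list the called genes, at most 4 with the largest difference or the 2 largest where none was called, and the 5 genes nearest in pattern. Other list genes (Fcgrt, Ms4a2, Fcer2a, Lyn, Inpp5d, Ptpn6, C1qc, Clec4f, Vsig4, Timd4, Clec4g, Ngp, Camp, Elane and Cxcr2) were named after their values were seen. Values of 2 called list genes are not reported here.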

Additional observations from a re-analysis of the deposited data

How the results depend on the processing

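Of the 7 members, 5 were called higher, and 34 list genes. With the normexp background the counts were 0 and 0 and the median member difference 0.78, with slide as a block 0, 1 and 0.91, and with median scaling 3 members and a median of 0.88. Without the filter on dim probes 0 members and 2 list genes were called, and with the methods' t-test after Benjamini-Hochberg adjustment 0 and 0, although 6 members and 2791 of all genes (16.7%) had an unadjusted p under 0.05 in it. When probes were averaged per gene, Fcgr3 lost its call and 4 members were called. Array weights raised the list count to 60 and the share of all genes called higher from 2.69 to 12.1%. In the authors' deposited values the median member difference was 0.87. Leaving out 1 array gave 0 to 6 members and 4 to 59 list genes, while 0.251 to 13.8% of all genes were called higher. The highest of each came without high-Chol array 1, where diet and slide coincide. Among these settings no member was called lower. The difference of Fcgr2b turned to -0.041 with slide as a block. The median of the other Fc receptors turned to -0.12 with normexp, -0.0042 with median scaling, -0.0066 with slide as a block and -0.0104 in the authors' values, and that of the Src family kinases to -0.18 with normexp. The sinusoidal endothelium median turned to -0.06 with median scaling. The B cell, T and NK cell, and mast cell and basophil medians turned to -0.44, -0.34 and -0.31 with normexp, and the B cell one to -0.02 with slide as a block. The changes relative to Fcgr2b stayed above 0 in these settings, at 0.68 to 0.96 for Fcer1g, 0.35 to 0.81 for Fcgr3 and 0.18 to 0.56 for Fcgr1. No setting used the second Fcgr3 probe alone, whose difference of 0.26 was below the 0.37 of the brightest Fcgr2b probe. Beyond the constructions of these settings, the cause of each change was not tested. No paired analysis was possible because the labels name replicates 1, 2 and 3 of each diet without assigning them to arrays. With 3 arrays per diet, 1 of the high-Chol diet on the slide of normal chow, diet and slide are separated by that array alone.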
